A study of Rattus norvegicus with 20 samples.

Results

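Tissue factor and the plasminogen activation system were followed through 9 genes: F3, TFPI, PLAU, PLAUR, PLAT, SERPINB2, THBD, PROCR and F10. They were chosen by symbol, and all 9 were found among the 17310 rows of the deposited expression table, whose symbols are in capitals. Transcript levels had been measured by RNA sequencing in microglia, which are macrophages that live in the brain, cultured from the cortex of male Sprague-Dawley rats aged 21 days. Cells that carry the myeloid integrin CD11b were caught on antibody-coated plates after perfusion and removal of the cerebellum, and grew without serum for 5 days. A 50% change of medium then brought 1 of 5 treatments, with 4 libraries each: PBS, morphine at 1 uM, LPS at 1 ng/mL, PAM3CSK4 at 1 ng/mL or zymosan at 100 ug/mL. Morphine is an opioid receptor agonist. LPS is bacterial endotoxin, an agonist of Toll-like receptor (TLR) 4, PAM3CSK4 is a synthetic lipopeptide that acts on TLR2, and zymosan is a yeast cell wall preparation that acts on TLR2 and dectin-1. No genotype is altered in any group, every group shared the sort, the medium and the days in culture, and how long the cells were exposed before lysis is not stated in the sources used here. Values are FPKM, fragments per kilobase of transcript relative to the mapped fragments of the library, so that levels of different genes can be set side by side per length.

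Tissue factor, the product of F3, is the membrane receptor that binds factor VII and starts the extrinsic pathway of blood coagulation. Its complex activates factor X (F10), and tissue factor pathway inhibitor (TFPI) shuts that step down. Thrombomodulin (THBD) and the endothelial protein C receptor (PROCR) turn thrombin to the activation of protein C, an anticoagulant. On the lytic side, urokinase (PLAU), held at the cell surface by its receptor (PLAUR), and tissue plasminogen activator (PLAT) cut plasminogen to plasmin, which dissolves fibrin and opens matrix. Plasminogen activator inhibitor 2, the product of SERPINB2, blocks urokinase and tissue plasminogen activator. In the brain, microglia are known as a source of urokinase, and tissue plasminogen activator is known for roles in neurons and microglia as well as in clot lysis. Monocytes and macrophages are known to make tissue factor and this inhibitor when stimulated by endotoxin.

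RefSeq promoter entries were matched by symbol for 6 of the 9 genes, in assembly GRCr8, and F3, PLAT and THBD had none. The 250 bases before the start are shown for SERPINB2, which was listed at 0 in PBS, and for PLAU, the most abundant of the 9 there, because these genes moved in opposite directions with the TLR agonists. Capitals mark an AP-1 motif in the first and GC boxes in the second. The first window is chr13:24055771-24056020 on the + strand, before a start inside the annotated gene, and the second is chr15:3511988-3512237 on the - strand, each written 5′ to 3′ in the direction of the gene.
SERPINB2: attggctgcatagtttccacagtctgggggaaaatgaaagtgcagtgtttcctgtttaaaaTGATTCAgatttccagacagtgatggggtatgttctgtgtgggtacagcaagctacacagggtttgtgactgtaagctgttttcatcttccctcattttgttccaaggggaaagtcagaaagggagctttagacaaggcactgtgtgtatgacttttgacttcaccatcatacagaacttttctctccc
PLAU: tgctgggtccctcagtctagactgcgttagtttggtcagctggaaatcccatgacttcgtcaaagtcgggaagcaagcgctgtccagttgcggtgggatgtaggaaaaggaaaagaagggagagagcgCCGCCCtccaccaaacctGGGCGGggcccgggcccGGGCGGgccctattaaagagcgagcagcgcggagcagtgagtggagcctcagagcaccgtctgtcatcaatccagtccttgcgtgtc
The motifs searched for, on both strands, were AP-1 (TGANTCA), an NF-kB-like motif (GGGANNNNCC), the GC box (GGGCGG) and an Egr1 motif (GCGNGGGCG), the last of which can overlap a GC box.

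Among the 33469 promoter windows of this length, 6.34% held the AP-1 motif, 16.4% the NF-kB-like motif, 30.5% a GC box and 4.29% the Egr1 motif. The SERPINB2 window held 1 AP-1 motif, TGATTCA, 189 to 183 bases before the start, and none of the other motifs. The PLAU window held 3 GC boxes within 122 to 82 bases before the start, the farthest on the opposite strand. Of the windows not printed, that of PLAUR held TGACTCA at 83 to 77 bases, that of PROCR held TGACTCA at 217 to 211 bases and GGGAGGGGCC at 96 to 87 bases, and 1 of the entries of TFPI held a GC box at 52 to 47 bases. No motif was found in the window of F10. A match is a description of these letters, and no binding was measured.

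Depth could be read in part from the values. Low FPKM of a gene are whole multiples of the value of 1 fragment, and by taking the smallest step as 1 fragment, whole fragments were recovered for 88.8% of the 10814 genes with at least 5 values above 0, among them 7 of the 9 (not TFPI and PLAUR). Relative depth lay between 0.558 and 1 of the deepest library, PBS 2. Without molecular identifiers, intervals from these fragments cover counting error only. The libraries also fell into a smaller set of 7 (all those numbered 1, with Morphine 2 and LPS 2) and a larger set of 13, split by the main axis of variation left within groups, which held 63.2% of that variation. Because the sets were drawn from these same values, a fit within the larger set or with a set term has less spread left by construction. Its p-values can be too small. In 6 of the 7 the table listed 0 for RN18S, the 18S ribosomal RNA. The replicate numbers paired the libraries of PBS, PAM3CSK4 and zymosan. In the comparisons with morphine or LPS they did so only in part, since replicate 2 deviated in opposite directions. All 8 microglial markers passed the filter, while 5 of 7 neuronal markers were listed at 0 throughout. The other neuronal markers, TUBB3 and SNAP25, carried a summed level of 2.90 to 6.59 FPKM in PBS, 1.11 to 5.44 FPKM with morphine, 9.79 to 20.5 FPKM with LPS, 9.51 to 24.7 FPKM with PAM3CSK4 and 11.8 to 25.5 FPKM with zymosan, and their part in the changes was not tested. Oligodendrocyte and precursor markers, summed to between 10.1 and 18.1 FPKM in PBS, 3.48 and 9.58 FPKM with LPS, 2.60 and 11.7 FPKM with PAM3CSK4, and 4.70 and 12.9 FPKM with zymosan. Border macrophage markers summed to at most 60.4 FPKM in any library. CD163 was listed at 0 throughout and F13A1 at no more than 0.227 FPKM, while MRC1, LYVE1 and CCR1 passed the filter. In that order their means were 4.94, 8.09 and 23.6 FPKM in PBS and 0.762, 1.70 and 24.4 FPKM with LPS. They were 1.65, 1.03 and 32.5 FPKM with PAM3CSK4 and 3.08, 1.72 and 40.4 FPKM with zymosan. The part of these markers in the changes was not tested.

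With the TLR agonists the genes of the initiator of coagulation and of an inhibitor of lysis rose while that of urokinase fell. With LPS, F3, PLAT and SERPINB2 rose and TFPI and PLAU fell, and the same 5 genes moved the same way with PAM3CSK4. With zymosan F3 and SERPINB2 rose and PLAU fell. PLAUR, PROCR and F10 passed the test in no comparison with PBS, and THBD was too low to be tested. Calls rest on an adjusted p under 0.05 in limma's moderated test of log2(FPKM + 1) across the 8858 genes that reached 1 FPKM in 4 or more libraries, and "rose" and "fell" are kept for genes that passed it. Over all tested genes, LPS raised 5.02% and lowered 27.3%, PAM3CSK4 raised 5.62% and lowered 22.6%, and zymosan raised 4.66% and lowered 14.2%. The median log2 difference from PBS over the 8 tested members was 0.26 with LPS, 0.45 with PAM3CSK4 and 0.63 with zymosan, against -0.37, -0.27 and -0.18 over all tested genes. F3, PLAT, SERPINB2 and F10 reached 1 FPKM in 4 libraries only with the agonist libraries counted, so these counts and medians are descriptions and support nothing further. Rescaling the libraries by their median ratios, which brings medians near 0 by construction, turned the negative medians of all genes into -0.0037, -0.0017 and -0.0036. The split of calls over all genes then became 12.3% higher and 13.5% lower (LPS), 12.1% and 13.4% (PAM3CSK4), and 8.29% and 9.16% (zymosan). After that rescaling LPS and PAM3CSK4 each had 5 members called higher (PLAUR and PROCR in addition) and 1 lower (PLAU), and zymosan had 4 (with PLAUR and PROCR) and 1.

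**Figure D1:**
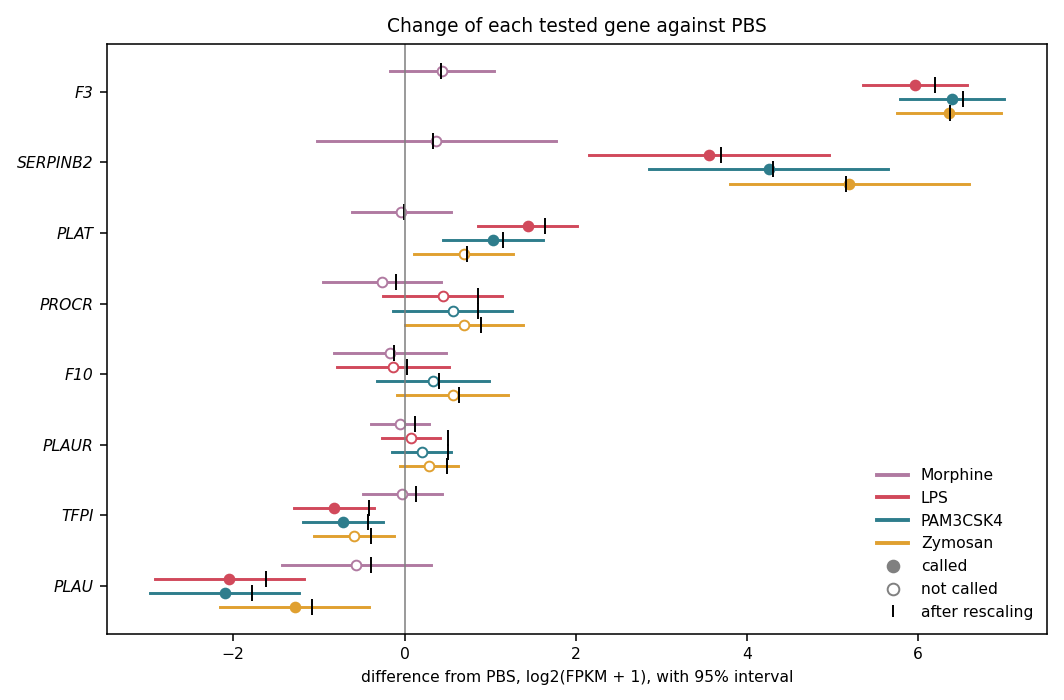
Difference from PBS of the 8 tested genes (log2(FPKM + 1), horizontal axis) with its 95% interval for each treatment, filled where the adjusted p was under 0.05, with a tick at the value after median-ratio rescaling. F3 lies at 5.97 to 6.40 with the agonists, SERPINB2 at 3.55 to 5.20 and PLAU at -2.10 to -1.28, and with the agonists rescaling moves PLAUR and PROCR to the right (0.49 to 0.89) and TFPI towards 0 (-0.43 to -0.39).

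**Figure D2:**
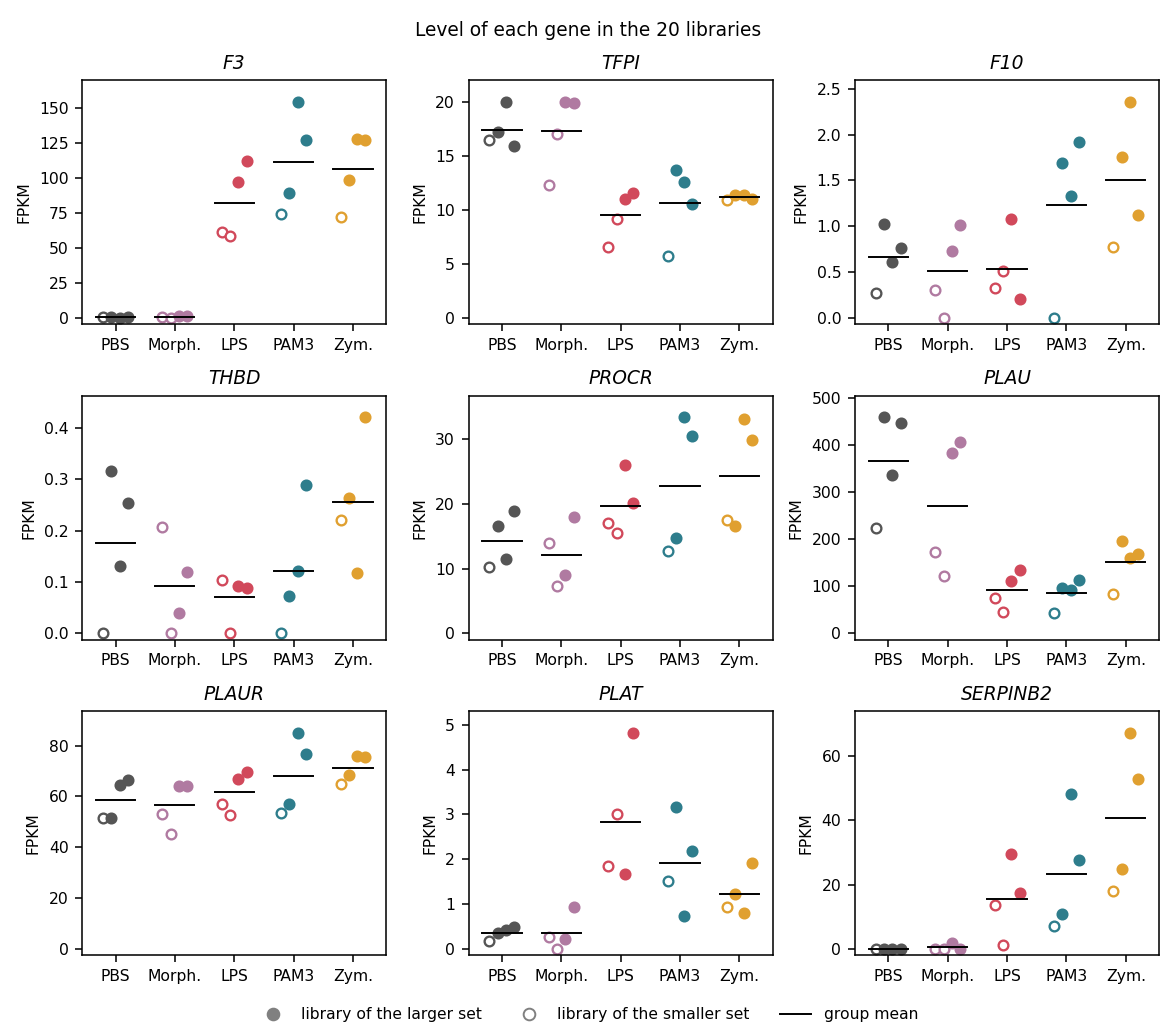
Level of each of the 9 genes (FPKM, linear axis from 0, scale differing between panels) in the 20 libraries by group, with filled points for the 13 libraries of the larger set, open points for the 7 of the smaller set and a line at the group mean. F3 and SERPINB2 are at or near 0 in PBS and high in all agonist libraries but SERPINB2 in LPS 2, while PLAU is highest in PBS, at 224 to 458 FPKM.

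F3, which encodes tissue factor, was close to silent without an agonist. It measured 0.236, 0.252, 0.180 and 0.451 FPKM in PBS libraries 1 to 4, which rests on 4, 5, 2 and 6 fragments, 17 in all (exact Poisson 95% interval 9.90 to 27.2). With LPS it measured 60.9, 58.3, 96.8 and 112 FPKM, from 848 to 1523 fragments. No LPS library came near a PBS library. With PAM3CSK4 the levels were 74.4, 88.9, 154 and 127 FPKM, from 1188 to 1832 fragments. With zymosan they were 72.0, 98.4, 127 and 127 FPKM, from 1263 to 2044 fragments. In each agonist group the lowest library belonged to the smaller set, and even the lowest stood 129 times (LPS), 165 times (PAM3CSK4) and 160 times (zymosan) above the highest PBS library.

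The mean F3 level rose from 0.280 ± 0.118 FPKM in PBS to 81.9 ± 26.4 FPKM (LPS), 111 ± 36.2 FPKM (PAM3CSK4) and 106 ± 26.5 FPKM (zymosan; SD, n = 4 each). As log2(FPKM + 1), which makes the changes of low genes look smaller, F3 differed from PBS by 5.97 ± 0.29 (SE) with LPS (adjusted p = 3.11e-11), 6.40 ± 0.29 with PAM3CSK4 (adjusted p = 1.01e-11) and 6.36 ± 0.29 with zymosan (adjusted p = 1.33e-11). By size of increase F3 ranked 9 of 8858 genes with LPS, 8 with PAM3CSK4 and 4 with zymosan. By mean level among all 17310 genes it went from rank 9379 in PBS to 676, 537 and 567. Within the 13 libraries of the larger set the F3 differences were 6.35, 6.56 and 6.51, so that the rise was at least as large without the 7 libraries that stood apart. In bulk RNA, more transcript per cell and more cells with the transcript cannot be told apart.

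TFPI, the inhibitor that closes the tissue factor pathway, went the other way by a small amount. It measured 16.5, 17.2, 19.98 and 15.9 FPKM in PBS. With LPS it measured 6.58, 9.12, 10.97 and 11.5 FPKM, all below every PBS library, as was so for 26.3% of all genes. With PAM3CSK4 it measured 5.69, 13.7, 12.5 and 10.5 FPKM. With zymosan it measured 10.9, 11.4, 11.4 and 11.01 FPKM, the narrowest group. Neither of these groups overlapped PBS, as was so for 24.2% of all genes on the lower side with PAM3CSK4 and 19.9% with zymosan. TFPI fell by 0.82 ± 0.22 (SE, log2 scale) with LPS (adjusted p = 0.00795) and fell by 0.72 ± 0.22 with PAM3CSK4 (adjusted p = 0.0206). With zymosan the log2 difference was -0.59 ± 0.22 and missed the threshold (adjusted p = 0.0739), but passed with the replicate number as a block (adjusted p = 0.0122). The numbers pair the zymosan and PBS libraries, but that block was fitted over all 20 libraries, with morphine and LPS included. The TFPI calls depended on the scaling: after rescaling the differences were -0.42 (adjusted p = 0.074) with LPS, -0.43 (0.0697) with PAM3CSK4 and -0.39 (0.125) with zymosan. For PAM3CSK4 the TFPI call was also lost without PBS 3 (adjusted p = 0.062) or without PAM3CSK4 1 (0.0758). Within the larger library set TFPI was called lower in each comparison, at -0.60 for LPS (adjusted p = 0.00186), -0.50 for PAM3CSK4 (0.00301) and -0.60 for zymosan (0.0012). In these fits 38%, 36.6% and 29.3% of all genes were called lower. Since the library sets were drawn from these same values, the p-values can be too small.

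A ratio of both genes within a library depends little on the library's total. The log2 ratio of F3 to TFPI, each with 1 FPKM added, was -3.84 ± 0.25 in PBS, 2.94 ± 0.27 with LPS, 3.27 ± 0.44 with PAM3CSK4 and 3.10 ± 0.37 with zymosan (SD, n = 4 each). TFPI thus exceeded F3 in all 8 PBS and morphine libraries and F3 exceeded TFPI in all 12 agonist libraries. Within the groups the ratio ranged from -4.15 to -3.54 in PBS and from 2.55 to 3.52 across the agonists. These ratios are descriptions without a test.

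**Figure D3:**
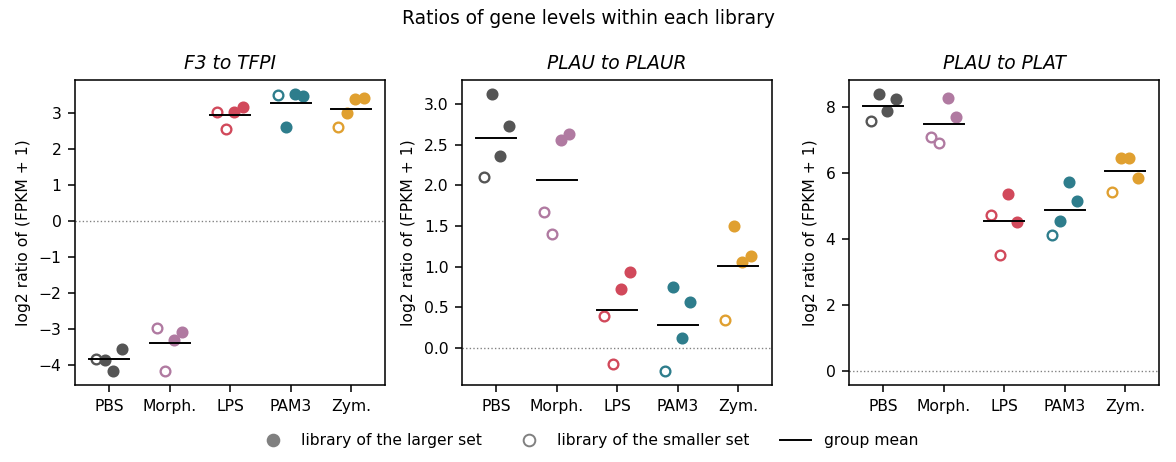
Log2 ratios of (FPKM + 1) within each library for F3 to TFPI, PLAU to PLAUR and PLAU to PLAT, by group, with open points for the smaller library set and a line at the group mean. The F3 to TFPI ratio changes sign between the libraries without an agonist (at most -2.96) and those with one (at least 2.55), and the other ratios are lower in each agonist group than in PBS.

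F10, the gene of coagulation factor X, was barely expressed and was called in no comparison with PBS. It measured 0.266, 1.02, 0.610 and 0.762 FPKM in PBS, from 4 to 18 fragments. With LPS it measured 0.324, 0.513, 1.07 and 0.204 FPKM, within the PBS range or just outside it. PAM3CSK4 gave 0, 1.69, 1.33 and 1.92 FPKM and zymosan 0.771, 1.76, 2.36 and 1.12 FPKM. Both TLR2 agonist groups overlapped PBS, and the log2 differences were -0.13 (95% interval -0.78 to 0.51), 0.33 (-0.32 to 0.98) and 0.57 (-0.08 to 1.21) in the order LPS, PAM3CSK4, zymosan. F10 was listed at 0 in Morphine 2 and PAM3CSK4 1, both of the smaller set. Within the larger set the differences were -0.18, 0.56 and 0.59, none called, and with a term for the library sets the zymosan value passed (adjusted p = 0.0483).

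Most of the other genes of the extrinsic and common pathway were at or near 0. F7, which encodes the ligand of tissue factor, was listed at 0 in 18 of 20 libraries and at no more than 0.0948 FPKM in the others. Prothrombin (F2) and the fibrinogen chains FGA and FGB were listed at 0 in all 20. Of the 16 other genes of the list 6 could be tested. VKORC1, the enzyme that recycles vitamin K, was the 1 called with each agonist in the main fit (5 group means, all 20 libraries, deposited scale). After rescaling P4HB, which encodes protein disulfide isomerase, was also called higher with each (1.204, 1.18 and 1.09), as was MCFD2, a cargo receptor subunit for factors V and VIII, with PAM3CSK4 (0.41). With the replicate block P4HB was called higher with PAM3CSK4 (0.86, adjusted p = 0.00528) and zymosan (0.88, 0.00637). Without rescaling P4HB was also called higher with each agonist with a term for the library sets (adjusted p = 1.12e-05, 5.69e-05 and 7.23e-05) and within the larger set (2.49e-05, 1.51e-05 and 3.54e-05). VKORC1 fell by 1.58 ± 0.20 (SE, log2) with LPS, by 1.41 ± 0.20 with PAM3CSK4 and by 1.04 ± 0.20 with zymosan, with no overlap with PBS. Of all genes 26.3%, 24.2% and 19.9% lay wholly below PBS in these groups. F8, the 1 tested gene of the intrinsic list, was not called, though within the larger library set it was called lower with LPS (-0.53, adjusted p = 0.0195) and PAM3CSK4 (-0.43, 0.0312). Among receptors that thrombin and related proteases cut, F2R (PAR1) stayed at 0.66 FPKM or less in every library. F2RL2 (PAR3) rose from between 11.9 and 18.6 FPKM in PBS to between 52.5 and 96.1 (LPS), 68.2 and 115 (PAM3CSK4), and 68.0 and 83.0 FPKM (zymosan). F2RL3 (PAR4) fell from between 17.4 and 28.6 FPKM in PBS to between 1.95 and 4.18, 1.25 and 6.497, and 4.99 and 9.01 FPKM. These were the tested receptors of the list of 4, and both were called with every agonist. In either direction 32.4% (LPS), 28.2% (PAM3CSK4) and 18.9% (zymosan) of all genes were called.

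The anticoagulant side held 1 gene that was almost absent and 1 that was present. THBD, which encodes thrombomodulin, measured 0, 0.317, 0.131 and 0.255 FPKM in PBS and at most 0.421 FPKM in any library (Zymosan 4), from 0 to 14 fragments. It did not reach 1 FPKM in any library, so it entered no test. When all genes with a value above 0 were tested, the THBD log2 differences from PBS lay between -0.13 (95% interval -0.32 to 0.07) with LPS and 0.10 (-0.10 to 0.29) with zymosan. PROCR, the endothelial protein C receptor, measured 10.3, 16.6, 11.4 and 19.0 FPKM in PBS, from 99 to 258 fragments. It measured 17.0, 15.5, 26.1 and 20.1 FPKM with LPS, 12.7, 14.8, 33.4 and 30.5 FPKM with PAM3CSK4, and 17.5, 16.5, 33.2 and 29.8 FPKM with zymosan. Replicate 3 was highest in each agonist group, and every group overlapped PBS. The PROCR log2 differences of 0.45 ± 0.33, 0.56 ± 0.33 and 0.70 ± 0.33 (SE) did not pass (adjusted p = 0.315, 0.232 and 0.166). They passed after rescaling, at 0.86 with LPS (adjusted p = 0.022), 0.86 with PAM3CSK4 (0.0216) and 0.89 with zymosan (0.0235), and with zymosan also with the replicate block (0.048). Within the larger library set they were 0.55, 0.65 and 0.69, none called.

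Since PROCR and THBD are best known from vessel lining cells, endothelial markers were looked at beside them. Of 10 endothelial markers, CLDN5, KDR and EMCN were listed at 0 in every library, and 6 reached 1 FPKM in 4 libraries. The summed marker level ran from 23.1 to 57.9 FPKM in PBS, 18.1 to 52.7 FPKM with morphine, 20.6 to 98.8 FPKM with LPS, 22.7 to 95.05 FPKM with PAM3CSK4 and 29.96 to 89.9 FPKM with zymosan. These markers did not move together. The mean of ESAM went from 8.72 FPKM in PBS to 41.4 FPKM with LPS and that of FLT1 from 7.58 to 10.3 FPKM, while CDH5 went from 4.97 to 0.746 FPKM, TEK from 8.11 to 2.97 FPKM, TIE1 from 13.8 to 4.55 FPKM and PECAM1 from 2.10 to 0.732 FPKM. With PAM3CSK4 and zymosan the means of ESAM and FLT1 were likewise above those in PBS and the other 4 below. Pericyte and fibroblast markers summed to at most 1.98 FPKM in any library. The part of these markers in the PROCR values was not tested. Protein C itself (PROC) was listed at 0 throughout. Of the 3 tested genes among the other 7 on the protein C and heparin list, PROS1, which encodes protein S, the cofactor of activated protein C, fell by 2.10 ± 0.30 (LPS), by 1.61 ± 0.30 (PAM3CSK4) and by 1.36 ± 0.30 (zymosan; SE, log2). HS3ST1, a heparan sulfate sulfotransferase, rose with LPS (1.57 ± 0.45, adjusted p = 0.0113), though its groups overlapped, and the call was lost without PBS 4 (adjusted p = 0.0525) or LPS 1 (0.0514) and with only the 2 groups in the fit (0.0558). With PAM3CSK4 its 1.06 passed only with the replicate block (adjusted p = 0.0293), without PBS 2 (0.0153) or with a term for the library sets (0.0411). GAS6, a relative of protein S, was not called, but with the block its -1.12 with PAM3CSK4 (adjusted p = 0.00464) and -0.86 with zymosan (0.0317) passed.

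PLAU, the gene of urokinase, was the most abundant of the 9 in PBS and fell with every agonist. It measured 224, 458, 336 and 446 FPKM in PBS, from 4073 to 9940 fragments, and ranked 152 of 17310 genes by mean level. With LPS it measured 75.4, 45.7, 111 and 134 FPKM. All LPS values were below the lowest PBS library, PBS 1, as was so for 26.3% of all genes. The 2 lowest came from the smaller set. PAM3CSK4 gave 43.3, 96.3, 92.1 and 113 FPKM. Zymosan gave 83.0, 196, 159 and 167 FPKM. Neither group reached the PBS range, and replicate 1 was lowest in both. Wholly below PBS lay 24.2% of all genes with PAM3CSK4 and 19.9% with zymosan. The mean PLAU level fell from 366 ± 109 FPKM in PBS to 91.3 ± 38.7 FPKM (LPS), 86.3 ± 30.1 FPKM (PAM3CSK4) and 151 ± 48.1 FPKM (zymosan; SD, n = 4 each). On the log2 scale PLAU fell by 2.05 ± 0.42 (SE, adjusted p = 0.000896) with LPS, by 2.10 ± 0.42 (adjusted p = 0.000781) with PAM3CSK4 and by 1.28 ± 0.42 (adjusted p = 0.0362) with zymosan. The zymosan call was the least firm. It was lost without PBS 2 (adjusted p = 0.11), PBS 3 (0.066), PBS 4 (0.0985), Zymosan 1 (0.123), Zymosan 3 (0.0576) or Zymosan 4 (0.0567), and with all genes above 0 in the test (0.0548). Within the larger library set the PLAU differences were -1.74, -2.02 and -1.24, with adjusted p of 4.74e-06, 4.6e-07 and 3.08e-05. These p-values can be too small, since the library sets were drawn from the same values. In these fits 38%, 36.6% and 29.3% of all genes were called lower. Between the sets PLAU differed by -1.13 (smaller minus larger, log2), against -0.36 for the median gene. The summed level of 8 microglial markers was also lower with the agonists, at 552 to 672 FPKM (LPS), 540 to 606 FPKM (PAM3CSK4) and 660 to 762 FPKM (zymosan) against 1143 to 1376 FPKM in PBS and 1027 to 1296 FPKM with morphine. The part of this shift in the PLAU and TFPI values was not tested.

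PLAUR, the urokinase receptor, passed no test on the deposited scale. It measured 51.4, 51.6, 64.6 and 66.3 FPKM in PBS, 57.2, 52.8, 66.8 and 69.6 FPKM with LPS, 53.3, 57.1, 85.0 and 76.8 FPKM with PAM3CSK4, and 65.1, 68.5, 76.0 and 75.7 FPKM with zymosan. The ranges overlapped throughout. The PLAUR log2 difference was 0.08 with LPS (95% interval -0.26 to 0.42), 0.20 with PAM3CSK4 (-0.14 to 0.54) and 0.29 with zymosan (-0.05 to 0.63). After rescaling PLAUR was called higher with each agonist, at 0.50 (adjusted p = 0.00341), 0.51 (0.00311) and 0.49 (0.00567). Without rescaling it was called higher with zymosan with the replicate block (adjusted p = 0.0277) and with a term for the library sets. Within the larger set the values were 0.17, 0.25 and 0.27, none called. The log2 ratio of PLAU to PLAUR went from 2.58 ± 0.45 in PBS to 0.46 ± 0.49 (LPS), 0.28 ± 0.47 (PAM3CSK4) and 1.01 ± 0.48 (zymosan; SD, n = 4 each). PLAU exceeded PLAUR in every library but LPS 2 and PAM3CSK4 1, both of the smaller set.

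PLAT, the gene of tissue plasminogen activator, rose from a very low level. It measured 0.167, 0.356, 0.414 and 0.478 FPKM in PBS, from 8 to 20 fragments. With LPS it measured 1.85, 3.02, 1.66 and 4.82 FPKM, from 73 to 151 fragments. The LPS group lay above PBS without overlap, as 5.18% of all genes did. PAM3CSK4 gave 1.51, 3.17, 0.743 and 2.19 FPKM, and zymosan 0.927, 1.22, 0.797 and 1.91 FPKM. All of these libraries stood above the highest PBS library, and replicate 3 was lowest in each agonist group. Groups stood wholly above PBS for 5.83% of all genes with PAM3CSK4 and 6.24% with zymosan. PLAT rose by 1.44 ± 0.28 (SE, log2) with LPS (adjusted p = 0.000572) and by 1.04 ± 0.28 with PAM3CSK4 (adjusted p = 0.00856). With zymosan the difference of 0.69 ± 0.28 missed the threshold (adjusted p = 0.0953) and passed with the replicate block (0.0189). With that block, which also raised the calls over all genes to 7.5% higher and 22.1% lower, zymosan had 5 members called higher and 2 lower. Within the larger set the PLAT differences were 1.48 (adjusted p = 0.00844), 1.01 (0.0305) and 0.68 (0.14). With a pseudocount of 0.1 FPKM in place of 1 the PLAT differences were 2.63, 2.04 and 1.52. Even so PLAU remained far more abundant per length: the log2 ratio of PLAU to PLAT was 8.03 ± 0.36 in PBS, 4.55 ± 0.77 with LPS, 4.90 ± 0.70 with PAM3CSK4 and 6.06 ± 0.50 with zymosan (SD, n = 4 each, 1 FPKM added to both). Plasminogen (PLG), the substrate of both enzymes, was listed at 0 in 19 of 20 libraries.

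**Figure D4:**
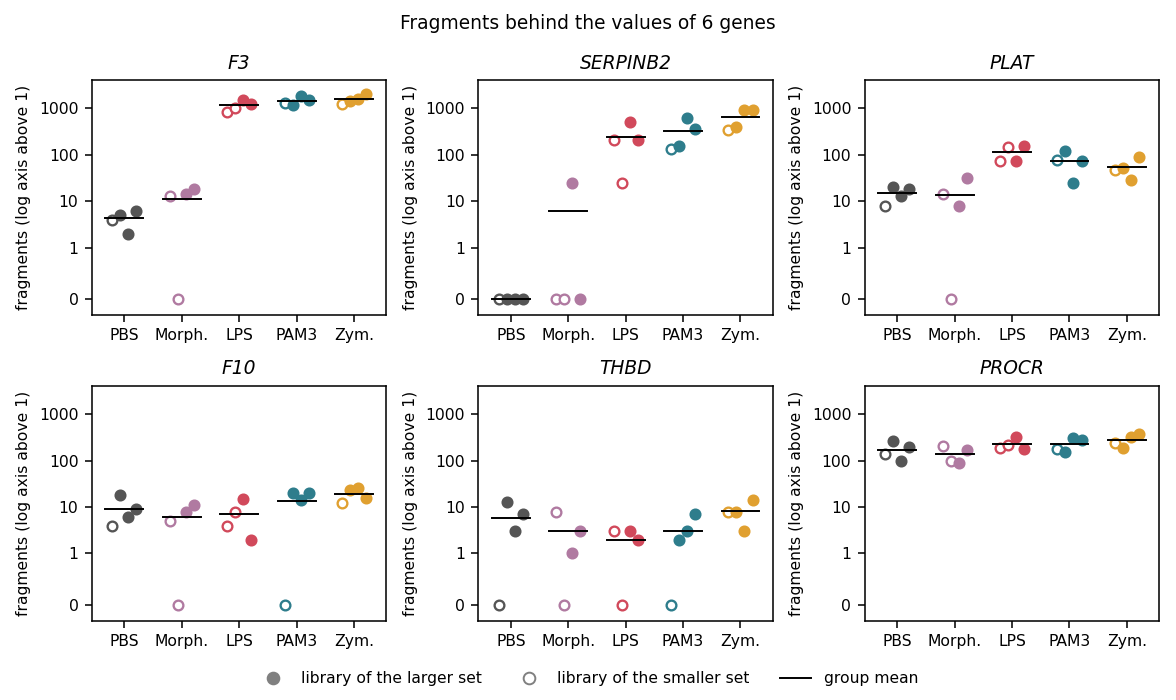
Whole fragments behind the values of F3, SERPINB2, PLAT, F10, THBD and PROCR in each library (log axis above 1, linear below), by group, with open points for the smaller library set and a line at the group mean. F3 rests on 2 to 6 fragments in PBS libraries and on 848 to 2044 with the agonists, while THBD never exceeds 14 fragments.

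SERPINB2, which encodes plasminogen activator inhibitor 2, was listed at 0 in all 4 PBS libraries. With LPS it measured 13.6, 1.31, 29.5 and 17.5 FPKM, from 206, 25, 505 and 211 fragments. LPS 2, of the smaller set, was far below the others. With PAM3CSK4 it measured 6.98, 10.7, 48.4 and 27.5 FPKM, from 133 to 626 fragments. With zymosan it measured 17.9, 24.9, 67.2 and 53.0 FPKM, from 342 to 929 fragments. Replicate 3 was highest in each agonist group, and every agonist library lay above PBS. Wholly above PBS lay 5.18% (LPS), 5.83% (PAM3CSK4) and 6.24% (zymosan) of all genes. If a listed 0 stands for no fragment, 0 fragments over the PBS group (3 allowed over the group, worth 0.0451 FPKM) make the mean level at least 344-fold higher with LPS, 519-fold higher with PAM3CSK4 and 905-fold higher with zymosan. These bounds take the agonist means as they are and leave out their spread. Without LPS 3 the LPS bound was 240-fold, without PAM3CSK4 3 the PAM3CSK4 bound was 334-fold, and without Zymosan 3 the zymosan bound was 709-fold. The fitted differences were 3.55 ± 0.67 (SE, log2, adjusted p = 0.00044), 4.25 ± 0.67 (8.76e-05) and 5.20 ± 0.67 (1.64e-05). Without LPS 2 the LPS value was 4.34. Between the library sets SERPINB2 differed by -1.17 (smaller minus larger, log2), the widest gap of the 8 tested members, and within the larger set the differences from PBS were 4.57, 4.67 and 5.51.

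Of the 9 other inhibitors described here 5 were tested, with 1 called higher and 2 lower for LPS, 2 and 2 for PAM3CSK4, and 1 and 2 for zymosan. Over all genes the shares called higher and lower were 5.02% and 27.3% (LPS), 5.62% and 22.6% (PAM3CSK4), and 4.66% and 14.2% (zymosan). SERPINB6, an intracellular serpin, rose (0.69, 0.95 and 0.65 in that order), and its PAM3CSK4 call held under every alternative run. Its LPS call was lost with only the 2 groups in the fit (adjusted p = 0.0535), without PBS 1, PBS 3, LPS 1 or LPS 3 (adjusted p = 0.055 to 0.0833) and within the larger set (0.0769), and its zymosan call without PBS 1, 2 or 3 or any zymosan library (0.0553 to 0.135), with no filter (0.0586) and within the larger set (0.0628). SERPINB8, a relative of it, fell by 0.98, 0.93 and 0.75 (the last not called after rescaling, adjusted p = 0.0997, with a pseudocount of 0.1 FPKM, 0.129, or without PBS 1, 2 or 4 or Zymosan 1, 3 or 4, adjusted p = 0.061 to 0.103), and SERPINI1, neuroserpin, an inhibitor of tissue plasminogen activator, fell by 1.39, 1.87 and 1.43. SERPINF2, which encodes the plasmin inhibitor alpha-2-antiplasmin, rose with PAM3CSK4 (0.83) and was not called with LPS (0.29) or zymosan (0.46).

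Of the genes of plasminogen receptors and helpers, most were not called. ANXA2 and S100A10, whose products form a plasminogen-binding complex at the cell surface, measured 748 to 1163 FPKM and 381 to 779 FPKM over all libraries, while PLGRKT, a membrane receptor of plasminogen, had group means of 5.05 to 9.03 FPKM. The log2 differences from PBS lay between 0.03 and 0.10 for ANXA2 and between 0.26 and 0.41 for S100A10 with the agonists, none called. Of the 5 tested genes among the other 7 of the plasminogen list, the 1 called was LRP1, an endocytic receptor that clears activator and inhibitor complexes, which fell with LPS (by 0.77, adjusted p = 0.00431) and lost that call after rescaling (-0.40, adjusted p = 0.0712). With PAM3CSK4 its -0.42 was called only with the replicate block (adjusted p = 0.012) or a term for the library sets (0.0244). ENO1, enolase, which also binds plasminogen at the cell surface, was not called in the main fit (5 group means, all 20 libraries, deposited scale). It was called higher with each agonist after rescaling (0.84, 0.66 and 0.60). Without rescaling it was also called with each agonist with a term for the library sets (adjusted p = 0.00304, 0.0243 and 0.0152) and within the larger set (0.000427, 0.000802 and 0.00235). The replicate block called it with LPS (0.40, adjusted p = 0.024) and zymosan (0.39, 0.0419), and the fit of only the 2 groups with zymosan (0.016). Some fits that left out a library called it too. Plasmin is known to activate matrix metalloproteases. Of 10 tested genes among the 12 listed with their inhibitors, 6 rose with each agonist, and LPS lowered 2, PAM3CSK4 3 and zymosan 3. Over all genes 5.02%, 5.62% and 4.66% were called higher and 27.3%, 22.6% and 14.2% lower. The median log2 difference of the 10 was 2.79, 3.20 and 3.33, against -0.37, -0.27 and -0.18 over all genes. MMP3 and MMP13, near 0 in PBS, passed the filter only through the agonist libraries, so the count and the median describe these genes alone. MMP13, a collagenase, rose from at most 0.0685 FPKM in PBS to between 36.4 and 220 FPKM with LPS. MMP9, gelatinase B, rose from between 58.1 and 137 FPKM in PBS to between 625 and 1120 FPKM with LPS. The membrane-bound MMP14 rose by 2.81, 2.89 and 3.34 (log2), and TIMP2, an inhibitor of the family, fell by 1.11, 1.51 and 1.21. After rescaling the 6 rises were still called, while the calls lower became 1, 2 and 0, TIMP2 keeping its call with PAM3CSK4 alone. The TIMP2 call with LPS was also lost without PBS 1, PBS 2, LPS 1 or LPS 3 (adjusted p = 0.0675 to 0.0906) and within the larger set (0.0987). The call with zymosan was also lost without PBS 1, PBS 2, Zymosan 2 or Zymosan 4 (adjusted p = 0.0723 to 0.114) and with only the 2 groups in the fit (0.0675).

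No difference between the agonists passed the test for these genes. None of the 8 tested members was called between PAM3CSK4 and LPS, zymosan and LPS, or zymosan and PAM3CSK4, in which 0.0339%, 0.0903% and 0% of all genes were called in limma (343, 719 and 299 genes, or 3.87%, 8.12% and 3.38%, had an unadjusted p under 0.05). The order of mean F3 levels, PAM3CSK4 above zymosan above LPS, fell within the spread, with log2 differences of 0.43 (95% interval -0.17 to 1.04) for PAM3CSK4 over LPS, 0.39 (-0.22 to 1.00) for zymosan over LPS and -0.04 (-0.65 to 0.56) for zymosan over PAM3CSK4. SERPINB2 was highest with zymosan, by 1.64 (0.24 to 3.04) over LPS, with an unadjusted p of 0.0238 and an adjusted p of 0.565. PLAT was lower with zymosan than with LPS by an uncalled -0.75 (-1.33 to -0.16, adjusted p = 0.505). PLAU was higher with zymosan than with PAM3CSK4 by 0.82 (-0.05 to 1.69), which was called only in the fit with a term for the library sets (adjusted p = 0.0474). With that term 0.0677% of all genes were called higher there. The width of these intervals means that alike responses are not shown either.

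None of the 8 tested genes passed the test with morphine, and limma called 0% of all genes in that comparison (104 genes, or 1.17%, had an unadjusted p under 0.05). F3 measured 0.698, 0, 1.14 and 1.47 FPKM with morphine, from 13, 0, 14 and 18 fragments. Morphine 2, of the smaller set, listed it at 0, and the other 3 libraries lay above every PBS library. The F3 group totals were 45 fragments with morphine (exact Poisson 95% interval 32.8 to 60.2) and 17 in PBS (9.90 to 27.2). The libraries themselves ranged from 0 to 18 fragments, and the F3 log2 difference of 0.44 (95% interval -0.17 to 1.05) did not pass (adjusted p = 0.897). Within the larger set, where morphine has 2 libraries and PBS 3, it was 0.83 (0.40 to 1.27), with an adjusted p of 1. SERPINB2 was listed at 0 in 3 morphine libraries and at 1.79 FPKM in Morphine 3, from 24 fragments. PLAU measured 172, 121, 382 and 405 FPKM, low in both libraries of the smaller set, and its log2 difference was -0.56 (-1.43 to 0.31), or -0.06 (-0.38 to 0.27) within the larger set. TFPI (12.3, 17.0, 19.9 and 19.9 FPKM), PLAUR (45.4 to 64.1 FPKM), PLAT (0 to 0.925 FPKM), PROCR (7.37 to 18.0 FPKM) and F10 (0 to 1.01 FPKM) overlapped PBS, with intervals of the log2 difference that reach at most 0.96 from 0. THBD measured 0.208, 0, 0.0394 and 0.119 FPKM.

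Transcription factors known from studies of the F3 and THBD promoters moved in part. Of 14 tested among the 18 listed, 4 rose and 1 fell with each agonist, FOSL1, FOSL2, JUNB and KLF6 being the former and KLF2 the latter. In the same fit 5.02%, 5.62% and 4.66% of all genes were called higher and 27.3%, 22.6% and 14.2% lower (LPS, PAM3CSK4, zymosan). FOSL1 and JUNB, subunits of AP-1, rose by 0.92 and 1.27 with LPS, by 1.16 and 1.45 with PAM3CSK4 and by 1.12 and 1.35 with zymosan (log2). KLF6 rose by 1.27, 1.49 and 1.35. After rescaling the counts were 7 higher and 1 lower for LPS, the same for PAM3CSK4, and 6 and 1 for zymosan. Over all genes 12.3%, 12.1% and 8.29% were then called higher and 13.5%, 13.4% and 9.16% lower. RELA and NFKB2, subunits of NF-kB, were called higher with each agonist after rescaling. With the replicate block NFKB2 was also called higher with PAM3CSK4 (0.81, adjusted p = 0.0149) and zymosan (0.87, 0.0131). Without rescaling NFKB2 was called higher with each agonist with a term for the library sets (adjusted p = 1.59e-05, 7.54e-06 and 5.37e-06) and within the larger set (2.52e-05, 2.98e-06 and 8.34e-06). KLF2, known as an activator of THBD, fell by 0.72, 0.73 and 0.88 from at most 1.51 FPKM in PBS. Its LPS call was lost within the larger library set (-0.48, adjusted p = 0.0864). KLF2 stayed at 0.639 FPKM or less in every agonist library. It passed the filter only through PBS and morphine libraries, so its fall and its place in the count are descriptions. The LPS call of FOSL2 was lost with only the 2 groups in the fit (adjusted p = 0.0712) and without PBS 2, PBS 3, LPS 1 or LPS 3 (adjusted p = 0.0545 to 0.0984). EGR1, a known inducer of F3, had differences of 0.15, 0.38 and 0.52 that were not called (adjusted p = 0.605, 0.198 and 0.098), the last passing with the replicate block (0.0477). For scale, the inflammatory genes IL1B, IL6 and NFKBIA rose by 5.51, 4.62 and 1.52 with LPS.

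**Figure D5:**
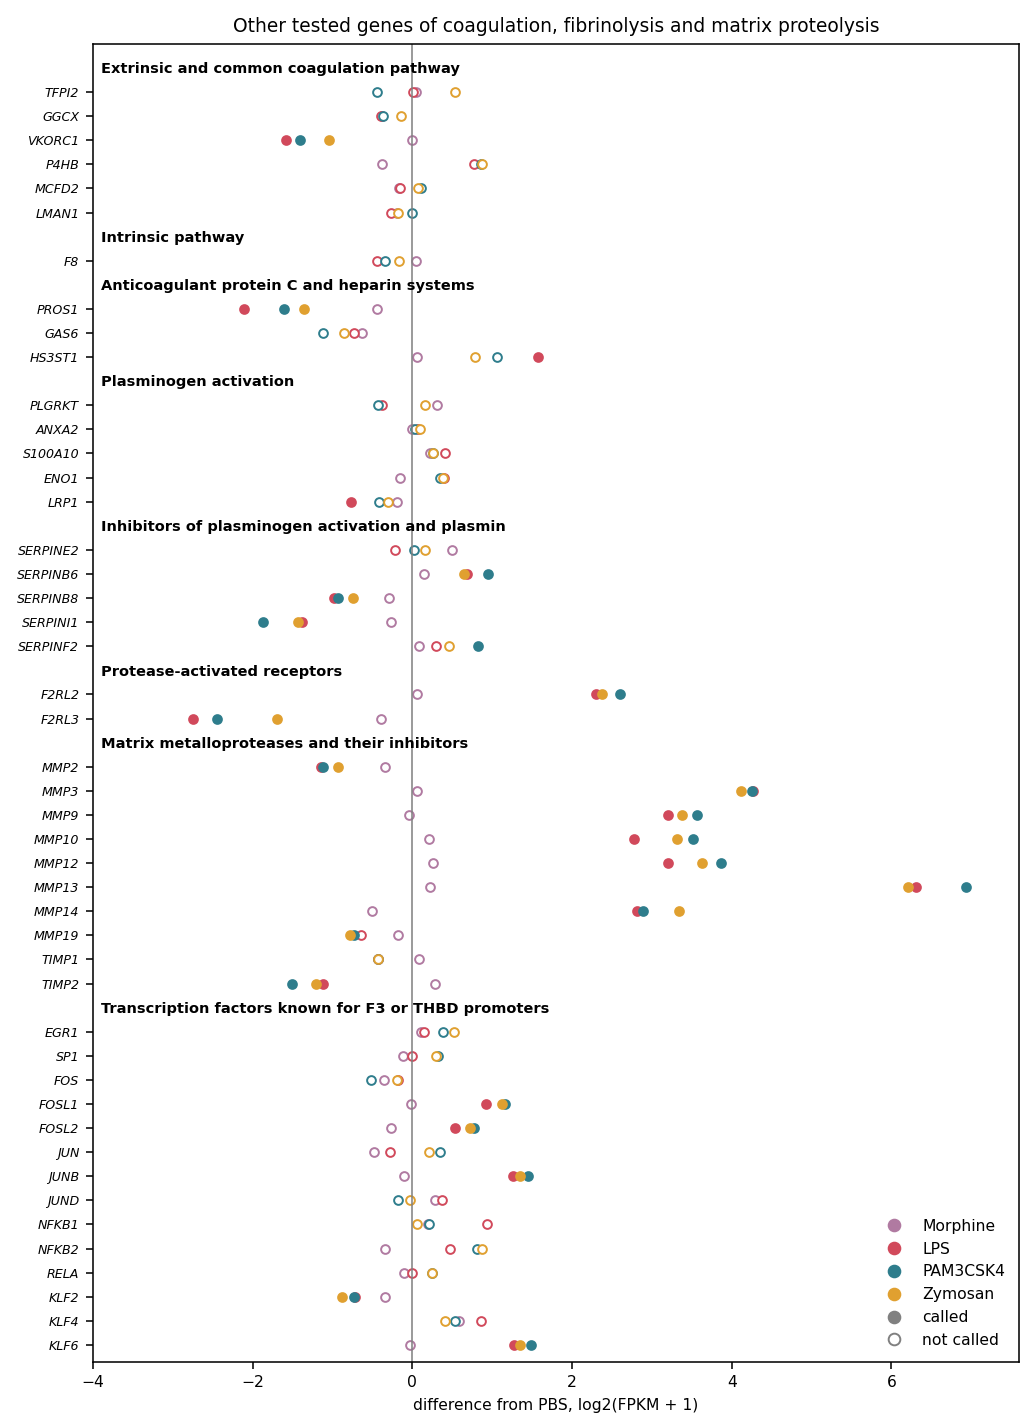
Difference from PBS (log2(FPKM + 1)) of the other tested genes of the lists, grouped by list, for each treatment, filled where called. The metalloproteases MMP3, MMP9, MMP10, MMP12, MMP13 and MMP14 and the receptor F2RL2 lie far to the right with every agonist, F2RL3 and PROS1 to the left, and no morphine point is filled.

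The genes with the most similar profile over the 4 treatments were found by the root mean square gap between their log2 differences from PBS, among tested genes with a group mean of at least 5 FPKM. For F3 these were CXCL2 (gap 0.34), a neutrophil chemokine, MMP13 (0.34) and CSF2 (0.36), the growth factor GM-CSF. CXCL2 went from 6.60 FPKM in PBS to 352, 497 and 380 FPKM with the agonists. For SERPINB2 the nearest were MMP3 (0.67), INHBA (0.73), a subunit of activin, and IL6 (0.74), at gaps larger than for the other members. For PLAU they were RAB27A (0.09), ARSB (0.11) and RPA1 (0.15), for PLAT HS3ST1 (0.09), LDHB (0.11) and SRGN (0.16), and for TFPI RDX (0.02), NDUFS3 (0.02) and UBL4A (0.03). Each profile rests on 4 differences that share the PBS libraries, so they are descriptions only.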

How the data were processed

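RNA from the 20 libraries had been extracted on RNeasy Micro columns and sequenced after Smart-Seq2 and Nextera XT preparation, per the labels' protocols. The authors deposited 1 table of FPKM values per gene symbol, and the submitters' processing notes name the rat build rn6 with featureCounts 1.4.6, HISAT2 2.0.5.1, DESeq2 and Cufflinks 2.2.1, with no role or order, while the annotation is not stated. Whether the 4 libraries of a group are separate cultures or animals is not said in the labels, and the p-values speak of the spread between these libraries, possibly a technical one. A dose of 10 uM morphine in the protocol was not analysed here.

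The 9 genes, the other gene lists and the tests were chosen with earlier results of these data known. The transcription factor, metalloprotease, inhibitor and receptor lists, the marker lists, the 2 to 4 examples of each list and the 3 nearest profiles of each called member were named by rules written with the design. A gene of the inhibitor list, with its ratios, is not reported here. Values were tested two-sided as log2(FPKM + 1) with limma 3.58.1 in R 4.3.3, with a mean-variance trend, 5 group means over all 20 libraries, and Benjamini-Hochberg adjustment within each of 7 comparisons. Every adjusted p is limma's. FPKM is relative to the library's total, so large rises lower the other values. Fragments were recovered within 0.15 of a whole number, with the smallest step taken as 1 fragment. The pipeline was tested on simulated data. Figures were drawn with matplotlib 3.10.9 in Python 3.11.15.

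Whether replicate numbers pair libraries was read from the correlation of their deviations from the group means. These were 0.74, 0.37, 0.45 and 0.56 for replicates 1 to 4 between PAM3CSK4 and PBS, and 0.82, 0.32, 0.57 and 0.54 between zymosan and PBS, all over 0.1. The pairing comes from the data alone. The replicate block was 1 fit over all 20 libraries, so its p-values also rest on the morphine and LPS libraries, which the numbers pair only in part. The alternatives tried were no filter, a pseudocount of 0.1 FPKM, median-ratio rescaling, the replicate block, only the 2 groups compared, a library-set term, the larger set alone, 0 values treated as missing beside 3 values of 5 FPKM or more, and leaving out each library. The smaller set held too few libraries per group for a fit of its own. Sequences are RefSeq's, GRCr8, used for promoters alone, since the values rest on rn6.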

Additional observations from a re-analysis of the deposited data

Results flagged for a closer look

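Of 59 groups of 4 libraries, 3 held a library whose gap to its nearest neighbour passed Dixon's 95% critical value, and chance alone gives such a gap in about 1 of 20 groups. SERPINB2 measured 1.79 FPKM in Morphine 3, from 24 fragments, and was listed at 0 in the other 3 morphine libraries. THBD was listed at 0 in LPS 2, of the smaller library set, beside 0.0875 to 0.104 FPKM in the other LPS libraries, a gap of at most 3 fragments. The log2 ratio of F3 to TFPI was 2.61 in PAM3CSK4 2 and 3.48 to 3.52 in the other PAM3CSK4 libraries. That library had the highest TFPI level of its group, 13.7 FPKM.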

How the results depend on the processing

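F3 was called higher with each agonist under every alternative run, as was SERPINB2, and PLAU was called lower with LPS and PAM3CSK4 under every one. The members called higher or lower went to 5 and 1 with LPS and to 5 and 1 with PAM3CSK4 after median-ratio rescaling. With PAM3CSK4 and only the 2 groups in the fit 1 was lower. With zymosan the counts became 0 lower with no filter, 4 higher after rescaling, 5 higher and 2 lower with the replicate block, and 2 lower with only the 2 groups. They were 6 higher and 2 lower with the library-set term (28.4% of all genes lower and 9.56% higher), and 2 lower within the larger library set (29.3% of all genes lower). Against PAM3CSK4, zymosan had 1 member higher with the library-set term. Leaving out a library at a time gave 1 to 2 members lower with PAM3CSK4 and 0 to 1 with zymosan.

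The replicate block raised the calls over all genes with PAM3CSK4 to 8.5% higher and 32.3% lower, and it changed no member's call outside zymosan against PBS. In the other comparisons the numbers do not pair the libraries, replicate 2 deviating in opposite directions (-0.139 for morphine and -0.186 for LPS against PBS), although 19 of 20 libraries correlated best with their own number. With a block for LPS the calls over all genes were 7.59% higher and 41.4% lower.

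With a pseudocount of 0.1 FPKM the log2 ratio of F3 to TFPI was -5.56 in PBS and -4.77 with morphine and that of PLAU to PLAT 9.66 in PBS, 9.48 with morphine and 6.85 with zymosan.

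Small differences that no test called changed sign, and the cause was not tested. With morphine these were TFPI (0.14) and PLAUR (0.12) after rescaling, TFPI (0.078), PLAUR (0.028) and PLAT (0.034) with the set term, and TFPI (0.17), PLAUR (0.082), PLAT (0.12) and F10 (0.062) within the larger set. F10 with LPS was 0.034 after rescaling and 0.027 with the set term. For PAM3CSK4 against LPS they were TFPI (-0.0077) after rescaling and PROCR (-0.017) with the set term, for zymosan against LPS PLAUR (-0.010) after rescaling, and for zymosan against PAM3CSK4 PLAUR (-0.016) after rescaling and TFPI (-0.11) within the larger set. Leaving out single libraries gave, with morphine, F10 -0.32 to 0.013, PLAT -0.22 to 0.10, PLAUR -0.11 to 0.052, SERPINB2 0 to 0.49 and TFPI -0.10 to 0.12, for PAM3CSK4 against LPS PLAU -0.35 to 0.24, PROCR -0.10 to 0.34, SERPINB2 -0.085 to 1.16 and TFPI -0.046 to 0.35, and for zymosan against PAM3CSK4 F10 -0.12 to 0.40, F3 -0.22 to 0.13, PLAUR -0.016 to 0.21, PROCR -0.091 to 0.35 and TFPI -0.12 to 0.26. Treating isolated 0 values as missing touched no member. In libraries without an agonist F3, SERPINB2, THBD, F10 and PLAT rest on 0 to 32 fragments, which limits the precision of their levels there.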
